A study of Mus musculus with 84 samples.

Results

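Epididymal white adipose tissue (eWAT) of diet-induced obese (DIO) mice dosed with BI 456906 at 30 nmol/kg was compared with that of DIO mice dosed at 3 nmol/kg, the highest against the lowest dose of the compound. The comparison holds 12 of the 84 RNA sequencing libraries of the series, 6 at each dose, taken by the tissue and the treatment group in their labels. The series has 42 eWAT and 42 liver libraries in 7 groups of 6 per tissue, namely vehicle, semaglutide at 20 and 100 nmol/kg, and BI 456906 at 4 doses, of which 10 and 20 nmol/kg lie between the 2 compared here. BI 456906 is a peptide that activates both the glucagon receptor (GCGR) and the receptor of glucagon-like peptide-1 (GLP-1R), and semaglutide activates the GLP-1R. All mice were male C57BL/6J, 22 weeks old when dosing began, fed a diet with 60% fat before and throughout, housed singly and injected under the skin every day for 30 days. No group carried an allele or agent beyond these. The labels give no mouse numbers, so the p-values measure only the spread between libraries of a group, which may be technical. That spread was estimated from all 42 eWAT libraries in their 7 groups. Libraries are named here by the number in their labels, 7 to 12 at 3 nmol/kg and 25 to 30 at 30 nmol/kg.

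White adipocytes take up fatty acids, make them from glucose and store them as triglyceride, which hormones and nerves release through receptors that raise or lower cyclic AMP. Epididymal fat expands in obesity, draws in macrophages and secretes leptin in proportion to the fat that is stored. It loses fat during weight loss, when genes of fat storage and genes of fat use are both known to move.

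Reads were counted per gene and divided by 1 factor per library in the table of counts, and TPM, an abundance scaled to a fixed total and corrected for gene length, serves here for levels. Whole reads recovered from the scaled counts summed to 43957886 to 50769372 per library, with a median of 46206842 at 30 and 49362798 at 3 nmol/kg. Differences are log2 fold changes (30 minus 3 nmol/kg) with standard errors (SE) from a limma/voom fit of the 42 eWAT libraries, in which 18536 genes were tested. The word called is used of genes with an absolute log2 fold change of 1 or more and a Benjamini-Hochberg false discovery rate (FDR), over all genes tested, of at most 0.05, and "rose" and "fell" are used of genes with an FDR of at most 0.05. In bulk tissue, fewer cells of a type and less RNA per cell cannot be told apart.

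Several libraries stood apart from their group in the summed TPM of cell type markers. The 10 adipocyte markers summed to 17160 to 30991 TPM at 3 nmol/kg (median 20750) and to 15998 to 29806 at 30 nmol/kg (median 27969), and all 10 were detected in both groups, so the label of the tissue is borne by its markers. Library 29 of the 30 nmol/kg group had the lowest adipocyte sum and the highest macrophage sum of the 12, 11647 TPM against 6132 to 7199 in the rest of its group. Library 9 of the 3 nmol/kg group had the highest adipocyte sum and, at 6796 TPM, the lowest macrophage sum of its group, where the highest was 10746. Liver transcripts, such as Alb (albumin), were present in all 12 libraries, and the 20 listed summed to 164 to 3183 TPM at 3 nmol/kg (median 564), to 66.7 to 1779 at 30 nmol/kg (median 224) and to 66.7 to 10369 with vehicle (median 3028). Libraries 7, 10 and 27 held the most, with 3183, 2118 and 1779 TPM. Markers of epididymis epithelium summed to at most 0.53 TPM except in library 28, where they reached 6.73 TPM, with 5 of 10 at 0 in all 6 libraries of its group.

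**Figure D1:**
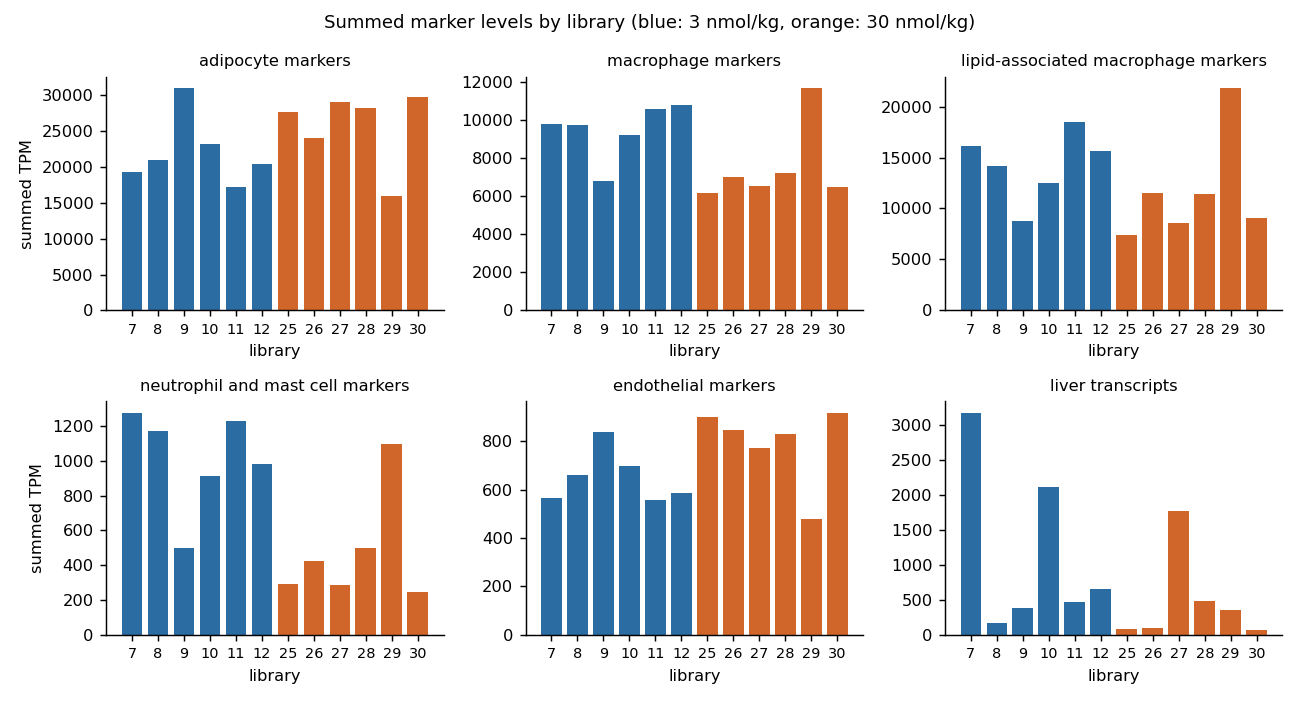
Summed TPM of the markers of 5 cell types and of liver transcripts (vertical axes, linear from 0) in each of the 12 libraries (horizontal axis), blue for 3 and orange for 30 nmol/kg. Library 29 carries the orange group's highest macrophage sum (11647 TPM), library 9 the blue group's highest adipocyte sum (30991 TPM), and libraries 7, 10 and 27 hold the most liver transcripts.

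At 30 against 3 nmol/kg, 158 genes were called higher (0.852% of those tested) and 197 lower (1.06%). By the FDR alone 1044 rose (5.63%) and 1098 fell (5.92%). With scaling by library size alone, in place of TMM normalization, these became 200 and 173 called and 1723 and 789 by the FDR alone. The 6 and 6 scaled counts did not overlap for 913 genes (4.93%), among them 32 of those called higher and 83 of those called lower. Of the called genes, 107 of the higher and 153 of the lower were protein-coding, and 99 and 126 had a mean of at least 1 TPM in either group. Without libraries 7, 10 and 27 the calls were 19 higher and 63 lower, of which 15 and 58 were also called with all libraries. Without libraries 9 and 29 they were 396 and 400, of which 151 and 162 were also called with all libraries. Both exclusions were chosen after the data were seen. Of the genes named below, 33 lost their call without libraries 7, 10 and 27 and 5 without libraries 9 and 29.

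The promoters of 5 genes described below carry short motifs of the factors known to regulate their pathways, and are shown so that the pathway of each can be read beside its change. Hmgcs1 fell, and Asns, Per1, Cry1 and Fam107a rose, the last 2 named after their values were seen. Sequences are from RefSeq promoter windows (250 bases before to 50 after a start, GRCm38.p6), printed 5′ to 3′ on the strand of the gene with the motif in capitals. Hmgcs1 carries a sterol regulatory element 137 bases before a start (chr13:119690205-119690231, plus strand), and Asns the C/EBP-ATF element of the amino acid response 23 bases before a start (chr6:7693216-7693241, minus strand). Per1 carries the clock's E-box 166 bases before a start (chr11:69098774-69098797, plus strand) and Cry1 the same E-box 60 bases before a start (chr10:85185100-85185123, minus strand). Fam107a carries a glucocorticoid response element 118 bases before a start (chr14:8309879-8309903, minus strand). The windows of Asns, Per1 and Fam107a precede 1 of several starts of these genes and lie within the gene as GENCODE draws it.
Hmgcs1: gtcaccgtcTCACCCCACttcccaggt
Asns: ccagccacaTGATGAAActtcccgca
Per1: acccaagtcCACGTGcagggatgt
Cry1: gccggtggtCACGTGgggtgcatg
Fam107a: tggcttGGACATGGTGTTCtgagtc

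The motifs were searched on both strands of 32851 windows of 27025 genes, and of the called genes 91 of the higher (116 windows) and 120 of the lower (164 windows) matched a RefSeq window by symbol. The sterol element TCACNCCAC was in 1.05% of all windows, in 0 of the 116 and in 2 of the 164, and in 1 of 14 windows of the cholesterol genes. The C/EBP-ATF element TGATGNAA was in 3.45% of all windows, in 5 of the 116 and in 2 of the 164. The glucocorticoid element, GNACA and TGTNC with 3 free bases between them, was in 0.387% of all windows, in 5 of the 116, which belong to Fam107a, Fyb2, Map3k6 and Slc10a6, and in 0 of the 164. The cAMP element TGACGTCA was in 1.55% of all windows, in 1 of the 116 and in 5 of the 164, and the E-box CACGTG in 6.02%, in 9 and in 3. Called genes come from the tested genes, which had 16019 windows. In these the sterol element was in 0.993%, the C/EBP-ATF element in 2.12% and the glucocorticoid element in 0.318%. The cAMP element was in 2.27% and the E-box in 7.65% of them. In the clock list 6 of 20 windows held the E-box. No test was made of these counts, no motif contains another, and a match does not show binding.

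The largest falls included Mest and Oxtr, which were abundant enough at 3 nmol/kg to be measured well at both doses. Among genes called lower whose groups did not overlap and that reached 1 TPM, the 10 protein-coding ones with the largest fold change were Lipf, Ncan, Pvalb, Mest, Oxtr, Tph2, Kcnj14, Slc5a7, Mogat2 and Cdkl4. Mest, an imprinted gene whose level follows fat mass expansion, was at 105, 184 and 227 TPM (lowest, median and highest of 6) at 3 nmol/kg and at 6.8, 12.3 and 51.2 TPM at 30 nmol/kg. The highest value at 30 nmol/kg, in library 28, was below the lowest at 3 nmol/kg. The difference was -3.53 (SE 0.59, FDR 0.000395). Mest lies on chromosome 6 (30723547 to 30748465, plus strand, GRCm38) and overlaps Copg2 on the other strand and the microRNA gene Mir335 on its own.

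Oxtr, the receptor of oxytocin, was at 9.74, 19.4 and 27.7 TPM at the lower dose and at 0.64, 1.34 and 3.61 TPM at the higher. No library of either group reached the range of the other, and the difference was -3.51 (SE 0.54, FDR 0.000224). Its gene lies on chromosome 6 (112473683 to 112489943, minus strand). Tph2, known as the enzyme of serotonin synthesis in neurons, went from 2.83, 6.97 and 15.5 TPM to 0.24, 0.59 and 1.96 TPM (log2 fold change -3.36, SE 0.69, FDR 0.00224). Slc5a7, the transporter that takes up choline, was at 5.44, 11 and 15.7 TPM against 0.67, 1.54 and 3.13 TPM (-2.8, SE 0.49, FDR 0.00058). Kcnj14, an inward-rectifier potassium channel, was at 4.65, 7.99 and 10.7 TPM against 0.38, 0.775 and 3.62 TPM (-3.04, SE 0.56, FDR 0.00103).

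Mogat2 makes diacylglycerol from monoacylglycerol, a step towards triglyceride. It was at 2.54, 4.47 and 6.42 TPM at 3 nmol/kg and at 0.23, 0.72 and 1.14 TPM at 30 nmol/kg, with no overlap (-2.66, SE 0.49, FDR 0.00104). Lipf, a lipase known from the stomach, Ncan, a proteoglycan of the matrix, and Pvalb, a calcium-binding protein, were lower still in level. Lipf was at 0.97 to 3.45 TPM against 0.03 to 0.42 TPM (-3.76, SE 0.6, FDR 0.000322), and Ncan at 0.8 to 2.12 against 0.07 to 0.27 TPM (-3.74, SE 0.52, FDR 0.00011). Pvalb was at 0.67 to 3.44 TPM against 0 to 0.19 TPM, on 14 to 78 and 0 to 4 reads, so its fold change of -3.66 (SE 0.65, FDR 0.000617) rests on few reads at 30 nmol/kg. Pvalb is also a skeletal muscle transcript, and the muscle list summed to 134 to 496 TPM at 3 and 82.2 to 192 TPM at 30 nmol/kg. Its part in the fall was not tested. Cdkl4, a kinase gene, was at 1.51 to 5.1 TPM against 0.22 to 1.2 TPM (-2.47, SE 0.6, FDR 0.00803). Of these 10 falls, Cdkl4 alone was no longer called without libraries 7, 10 and 27, at -2.24.

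**Figure D2:**
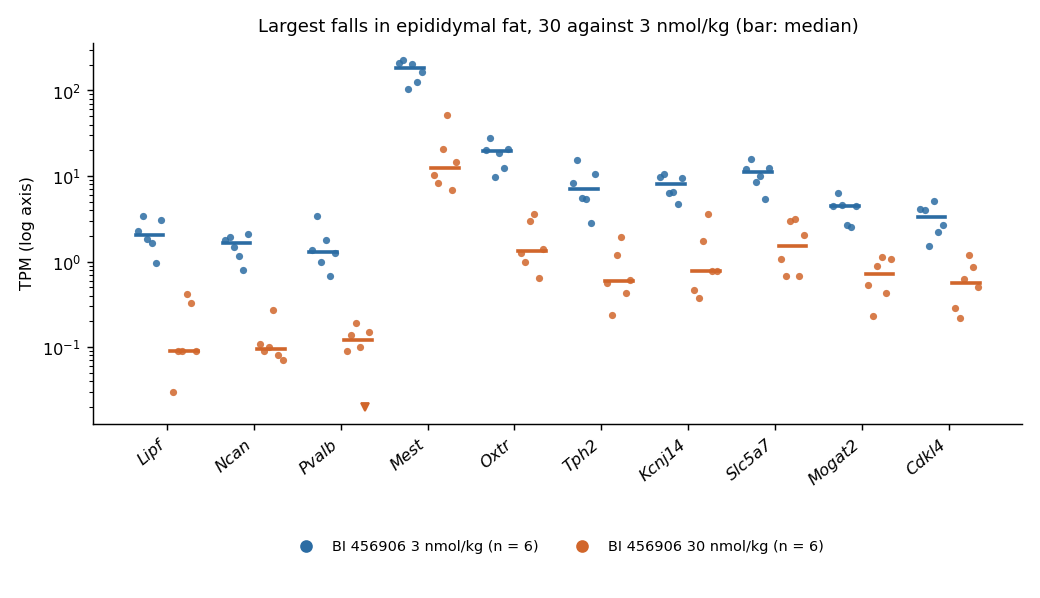
TPM (vertical axis, logarithmic) of the 10 genes with the largest falls in 6 libraries at 3 nmol/kg (blue) and 6 at 30 nmol/kg (orange), with the median as a bar; a triangle at the lower edge marks library 29, listed at 0 for Pvalb. In each gene the 2 dose groups are separate, as for Mest with 105 to 227 against 6.8 to 51.2 TPM.

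The largest rises by the same rule were smaller than the largest falls, at log2 fold changes of 1.01 to 1.7 against -2.47 to -3.76. The 9 described here were Irf4, Cidea, Bex1, Fam180a, Tcf23, Usp2, Asns, Acot4 and Plppr3. Asns, which makes asparagine and whose C/EBP-ATF element is printed above, was at 23.2, 25.6 and 34.5 TPM at 3 nmol/kg and at 45, 67.9 and 76.6 TPM at 30 nmol/kg. The groups did not overlap, and the difference was 1.18 (SE 0.2, FDR 0.000422). Cidea, a protein of the lipid droplet that is abundant in brown fat, was at 2.3, 4.46 and 6.52 TPM against 6.98, 9.98 and 17.8 TPM (1.34, SE 0.32, FDR 0.00731). An antisense gene, B430212C06Rik, overlaps it, and their reads cannot be told apart if strand was not used in counting.

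Usp2, a ubiquitin protease whose level follows the circadian clock, was at 2.95, 3.71 and 7.32 TPM against 6.39, 9.96 and 13.6 TPM (1.24, SE 0.21, FDR 0.000393). Its groups were apart as scaled counts and overlapped as TPM, where library 9 was the highest of the 3 nmol/kg group. Irf4, a transcription factor of adipocytes and immune cells, was at 4.71, 5.02 and 5.8 TPM against 8.82, 15.6 and 35.5 TPM. The 6 values at 30 nmol/kg were spread over a wide range, and its FDR of 0.0494 (log2 fold change 1.7, SE 0.58) passed 0.05 in the full set but not after leaving out any one of 10 of the 12 libraries.

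Acot4, a thioesterase of peroxisomes with close relatives that can share its reads, was at 2.24 to 4.02 TPM against 4.7 to 10.4 TPM (1.12, SE 0.3, FDR 0.0147). Plppr3, a neuronal membrane protein gene that overlaps Ptbp1 and Prtn3, was at 8.39 to 14.5 against 16.8 to 29.4 TPM (1.01, SE 0.21, FDR 0.00313). Tcf23, a helix-loop-helix factor, was at 0.86 to 1.95 against 2.03 to 3.5 TPM (1.25, SE 0.26, FDR 0.0023), and Fam180a at 1.9 to 4.03 against 4.11 to 8.71 TPM (1.27, SE 0.34, FDR 0.0144). Bex1 was at 0.34 to 0.75 against 0.6 to 2.09 TPM on 5 to 9 and 9 to 36 reads, overlapping as TPM, so its difference of 1.31 (SE 0.39, FDR 0.0269) is the least precise in counting. Without libraries 7, 10 and 27, the calls of Cidea, Usp2 and Asns remained, at 1.5, 1.1 and 1.2, and those of Irf4, Bex1, Fam180a, Tcf23, Acot4 and Plppr3 were lost.

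**Figure D3:**
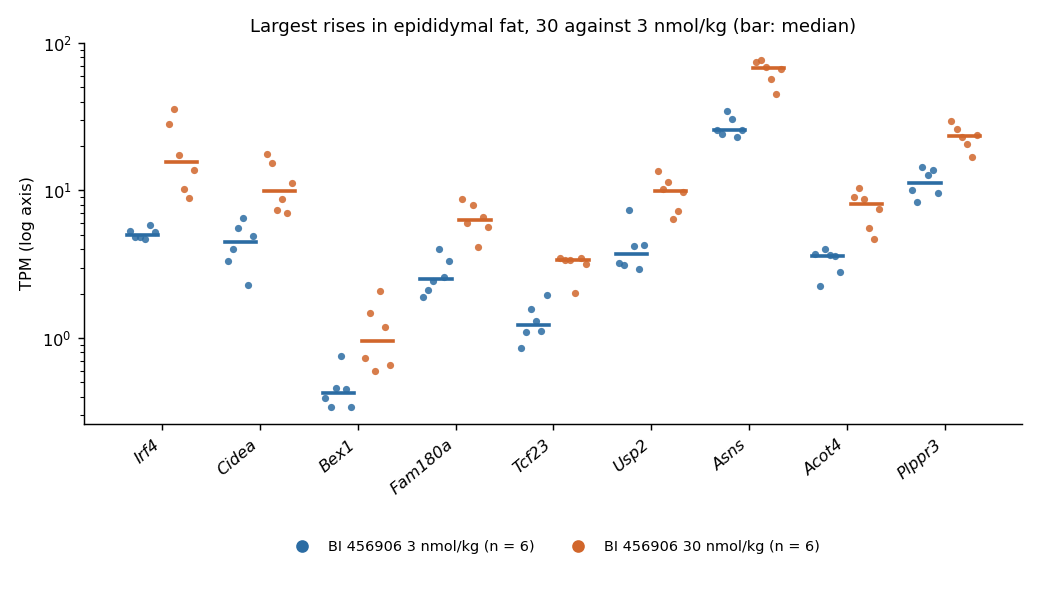
TPM (vertical axis, logarithmic) of 9 of the genes with the largest rises in 6 libraries at 3 nmol/kg (blue) and 6 at 30 nmol/kg (orange), with the median as a bar. The dose groups are separate except in Bex1 and Usp2, whose TPM overlap, and Irf4 at 30 nmol/kg spans 8.82 to 35.5 TPM.

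Neither receptor of BI 456906 was shown to change in eWAT. Gcgr was at 2.38, 3.76 and 5.87 TPM at 3 nmol/kg and at 1.55, 3.94 and 5.8 TPM at 30 nmol/kg, a difference of -0.03 (SE 0.48, FDR 0.967). Its sign turned with the processing, and it was at 0.44 with the liver transcript level as a covariate. The highest Gcgr values of the 2 groups were in libraries 7 and 27, which held the most liver transcripts of their groups. Hepatocytes express Gcgr too, and the part of liver RNA in these levels was not tested. Glp1r had at most 3 reads in any of the 12 libraries and was not tested, which is at the floor of this depth. Gipr, the receptor of the related incretin GIP, was at 3.78, 5.42 and 7.07 against 2.13, 4.71 and 6.22 TPM (-0.19, SE 0.26, FDR 0.644).

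Of 16 listed receptors of signals that start or restrain lipolysis, 15 were tested, with 3 called higher and 1 lower and a median of 0.07, beside a median of -0.02 over all genes. The stimulating receptors Adrb1 and Mc5r rose, and Ptger3 and Adora1, whose ligands prostaglandin E2 and adenosine restrain lipolysis, fell. Mc5r, a melanocortin receptor, was at 0.12, 0.28 and 3.31 TPM against 1.43, 3.98 and 6.81 TPM (2.56, SE 0.67, FDR 0.0128), and libraries 9 and 12 of the lower dose lay within the range of the higher dose. Adrb1 was at 1.27 to 2.5 against 1.6 to 5.92 TPM (1.06, SE 0.33, FDR 0.0329), a call lost in 12 of the other fits. Ptger3 was at 16.6, 25 and 26.9 TPM against 5.52, 11.7 and 16 TPM (-1.11, SE 0.25, FDR 0.00511), and every value at 30 nmol/kg was below every value at 3 nmol/kg. Its call was lost with sample quality weights (-0.935) and with the liver transcript level as a covariate (-0.973). It was also lost without library 29 (-0.912) and without libraries 9 and 29 (-0.902). Adora1 went from 20.6 ± 3.99 to 12.5 ± 3.19 TPM (mean ± SD, n = 6 each), at -0.75 (FDR 0.0481). Adrb3, the main beta receptor of rodent fat, differed by 0.07 (FDR 0.93).

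Leptin and 3 other markers of fat mass fell while adiponectin did not pass the test. In the list of 12 adipokines and fat mass markers, 4 were called lower (Lep, Mest, Sfrp5 and Npr3) and 0 higher, and the median was -0.16. Without libraries 7, 10 and 27 Mest alone was called lower, and without libraries 9 and 29 Mest and Lep were and the median was 0.10. Lep was at 470, 868 and 1191 TPM at 3 nmol/kg and at 170, 306 and 527 TPM at 30 nmol/kg. The groups overlapped only where the lowest library at 3 nmol/kg met the highest at 30 nmol/kg, and the difference was -1.54 (SE 0.42, FDR 0.016). The call of Lep was also lost without library 26 (-1.37). Sfrp5, a secreted inhibitor of Wnt signals, was at 259, 310 and 424 against 58.4, 146 and 268 TPM (-1.38, SE 0.42, FDR 0.0294), a call lost in 8 of the 12 fits without 1 library and with the liver covariate (-1.18). Npr3, which clears natriuretic peptides, was at 154 to 275 against 44.5 to 187 TPM (-1.24, SE 0.35, FDR 0.0187), and its call was also lost without library 26 (-1.08). Nampt, an enzyme of NAD synthesis, rose by 0.65 (FDR 0.0066). Adipoq was at 1408, 1615 and 2724 TPM against 1107, 1974 and 2183 TPM, a difference of 0.03 (SE 0.29, FDR 0.951).

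Genes of de novo lipogenesis, which makes fatty acids from acetyl-CoA, moved unevenly. Of 15, 3 were called lower and 1 higher, 5 fell and 1 rose by the FDR, and the median was -0.31. Scd2, a desaturase with close relatives, was at 27.1, 54.7 and 67 TPM at 3 nmol/kg and at 10.2, 14.6 and 23.8 TPM at 30 nmol/kg (-1.74, SE 0.25, FDR 0.00011), with no overlap. Pnpla3, a lipid droplet protein induced by feeding, was at 6.94 to 21.3 against 1.86 to 7.66 TPM (-1.75, SE 0.33, FDR 0.0012). Elovl6, which lengthens fatty acids, was at 3.51 to 7.19 against 1.61 to 4.58 TPM (-1.07, SE 0.22, FDR 0.00199). Its call was lost on log2(TPM + 1) (-0.85), with the liver covariate (-0.94) and without library 8, 26 or 29. Leaving out libraries 9 and 29 together also ended it. Acly, which makes the acetyl-CoA, and G6pdx, which makes NADPH, fell by 0.31 and 0.51 on the log2 scale. Fasn, the fatty acid synthase, was at 274 ± 74.3 against 164 ± 72.7 TPM (-0.89, FDR 0.078), and Scd1 differed by -0.08 (FDR 0.88). Acacb, whose product malonyl-CoA at mitochondria restrains fatty acid oxidation, rose from 19.4, 25.7 and 45.5 TPM to 30, 85.3 and 105 TPM (1.45, SE 0.42, FDR 0.0213). Its call was lost in 5 of the 12 fits without 1 library, with the macrophage covariate (0.95) and without libraries 7, 10 and 27 (1.31).

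Of 17 genes of fatty acid uptake and triglyceride synthesis, Dgat2 and Mogat2 were called lower and 0 higher, and the median was 0.08. Dgat2, which adds the last fatty acid to triglyceride, was at 393, 552 and 654 TPM against 83.9, 191 and 254 TPM, with no overlap (-1.73, SE 0.36, FDR 0.00297). Dgat1, the other enzyme of that step, differed by 0.22 (FDR 0.51). Lpl, the lipase that feeds adipocytes from blood lipoproteins, fell from 2523 ± 174 to 1846 ± 151 TPM (-0.39, FDR 0.0031). Slc27a1, a fatty acid transporter, rose by 0.58 (FDR 0.033). Pck1 and Lpin1 were at 1.12 and 1.08 and did not pass, with FDRs of 0.095 and 0.068.

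The lipid droplet and lipolysis genes were mostly level. Of 14, Cidea was called higher and Abhd5, which activates the triglyceride lipase, rose by 0.54 (FDR 0.038), with a median of 0.04. Plin2 was at 1533 to 2384 against 1506 to 2811 TPM (-0.21, FDR 0.509) and Cidec at 2004 to 4610 against 1921 to 3846 TPM (0.12, FDR 0.76). The lipases themselves did not pass, Pnpla2 at 0.66 (FDR 0.085), Lipe at 0.15 (FDR 0.72) and Mgll at -0.24 (FDR 0.42).

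Of 15 thermogenic genes, Cidea and Cox8b were called higher and 0 lower, and the median was 0.07. Cox8b, a subunit of cytochrome oxidase used in brown fat and muscle, was at 22.8, 29.5 and 44.4 TPM against 44.1, 108 and 144 TPM (1.51, SE 0.35, FDR 0.00569). Ucp1, the uncoupling protein that defines brown fat, was at 0.02, 0.075 and 0.14 TPM against 0.06, 0.22 and 1.13 TPM, on at most 47 reads in a library, and did not pass by limma/voom (1.63, SE 0.73, FDR 0.129). It was called higher by edgeR (2.11), by DESeq2 (2.16) and with sample quality weights (2.12), and 3 genes of the list passed by edgeR and 3 by DESeq2. The markers of brown adipocytes, of which 8 were listed, summed to 46.7 to 90.3 TPM at 3 and to 80.2 to 208 TPM at 30 nmol/kg, of which Cox8b made 32.6 ± 8.83 and 98.3 ± 37.9 TPM on average, and their part was not tested. The median of this sum was 107 TPM with vehicle, 68.1 at 3 and 149 at 30 nmol/kg. With vehicle Cox8b was at 34.2 to 65.1 TPM. Against vehicle the thermogenic list had a median of -0.37 at 3 and -0.12 at 30 nmol/kg. Lep, Cox8b and Mc5r were at -1.71, 1.5 and 2.12 without libraries 7, 10 and 27 and were not called there. Elovl3 and Dio2 were at -2.37 (FDR 0.22) and -0.23 (FDR 0.77).

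Small rises ran through the genes of the respiratory chain. All 20 listed nuclear genes were higher at 30 nmol/kg, 9 of them by the FDR and 0 by the fold minimum, with a median of 0.23 and a range of 0.04 to 0.37. Cox4i1, a core subunit of cytochrome oxidase, was at 955, 991 and 1083 TPM against 1142, 1245 and 1319 TPM, with no overlap (0.3, SE 0.07, FDR 0.00786), and its reads may include those of Emc8 on the other strand. Sdhb of complex II went from 146 ± 4.56 to 182 ± 14.6 TPM (FDR 0.0034) and Uqcrfs1 of complex III from 99.3 ± 13.5 to 128 ± 12.2 TPM (FDR 0.014). The same 20 were higher in each of 7 other fits that were run on the lists, in which 0 to 17 passed the FDR, with 0 when libraries 7, 10 and 27 were left out. The adipocyte sum, higher in 5 of 6 libraries at 30 nmol/kg than in 5 of 6 at 3 nmol/kg, was also higher, and its part was not tested.

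Genes that break down branched-chain amino acids were also higher, 13 of 13, with a median of 0.45, but Bcat2 alone passed. Bcat2, the mitochondrial transaminase of the first step, was at 112, 120 and 147 TPM against 141, 183 and 200 TPM (0.48, SE 0.13, FDR 0.0127). Ivd, of leucine breakdown, was at 85.6, 98.5 and 184 against 104, 180 and 197 TPM (0.61, FDR 0.127), with library 9 as the highest at 3 nmol/kg. With macrophage marker level as a covariate 11 of 13 were higher, with a median of 0.17. Of 15 genes of fatty acid oxidation 13 were higher with a median of 0.09, and Acadvl (0.43, FDR 0.017) and Slc25a20 (0.24, FDR 0.027), which act on long-chain fatty acids, rose.

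Insulin signalling and the adipocyte transcription factors gave few passing genes. Among 15 genes of insulin signalling and glucose use 0 were called, while Foxo1 rose by 0.67 (FDR 0.022), Pik3r1 rose by 0.42 (FDR 0.037) and Pfkfb3, which drives glycolysis, fell by 0.79 on the log2 scale (FDR 0.028). Pdk4, which restrains glucose oxidation, was at 69.2, 101 and 198 TPM against 138, 178 and 246 TPM (0.76, FDR 0.0593), and Akt2 differed by 0.06 (FDR 0.77). Of 11 transcription factors 0 passed by limma, 0 by edgeR and 1 by DESeq2, with 4 at an unadjusted p under 0.05 and a median of 0.17. Cebpa was at 268 to 304 against 216 to 312 TPM (-0.14, FDR 0.45), Nr1h3 at 95.1 to 111 against 91.5 to 130 TPM (0.14, FDR 0.216) and Pparg at 0.44 (FDR 0.11).

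Cholesterol synthesis genes were lower in 15 of 18, with a median of -0.35, and 4 fell, of which 1 was called. Hmgcs1, an early enzyme of the pathway whose sterol element is printed above, was at 35.1, 51.6 and 65.6 TPM against 26.5, 31.9 and 39.7 TPM (-0.67, SE 0.16, FDR 0.00714). Fdps went from 38.6 ± 5.63 to 24.6 ± 1.19 TPM and Nsdhl from 18.1 ± 2.56 to 12.1 ± 1.54 TPM (FDR 0.02 and 0.0046). Pmvk was at 27.8 to 42.1 against 34.5 to 42 TPM (0.22, FDR 0.308).

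The matrix genes were lower in 19 of 21 tested, with a median of -0.57. Of these 7 fell and 0 reached the fold minimum. Leaving out libraries 9 and 29, 13 fell and 4 were called, with sample quality weights 17 fell and 7 were called, and leaving out libraries 7, 10 and 27, 2 fell. Sparc, a collagen-binding protein, was at 2074, 2477 and 2825 TPM against 1094, 1215 and 1873 TPM, with no overlap (-0.92, SE 0.19, FDR 0.00233). The highest of the 30 nmol/kg group was library 28. Col15a1 of the basement membrane went from 228 ± 29 to 121 ± 31.5 TPM (-0.95, FDR 0.0054) and Col6a2 from 377 ± 69.6 to 224 ± 53.1 TPM (-0.77, FDR 0.014). Col3a1, a fibrillar collagen, was at 503, 928 and 1069 TPM against 262, 428 and 817 TPM (-0.89, FDR 0.116), and was called without library 29 (-1.09). The summed TPM of 13 progenitor and fibroblast markers overlapped, at 2585 to 3179 against 2691 to 3424, and Cd248, a marker of mural and progenitor cells, fell by 0.84 on the log2 scale (FDR 0.0083).

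**Figure D4:**
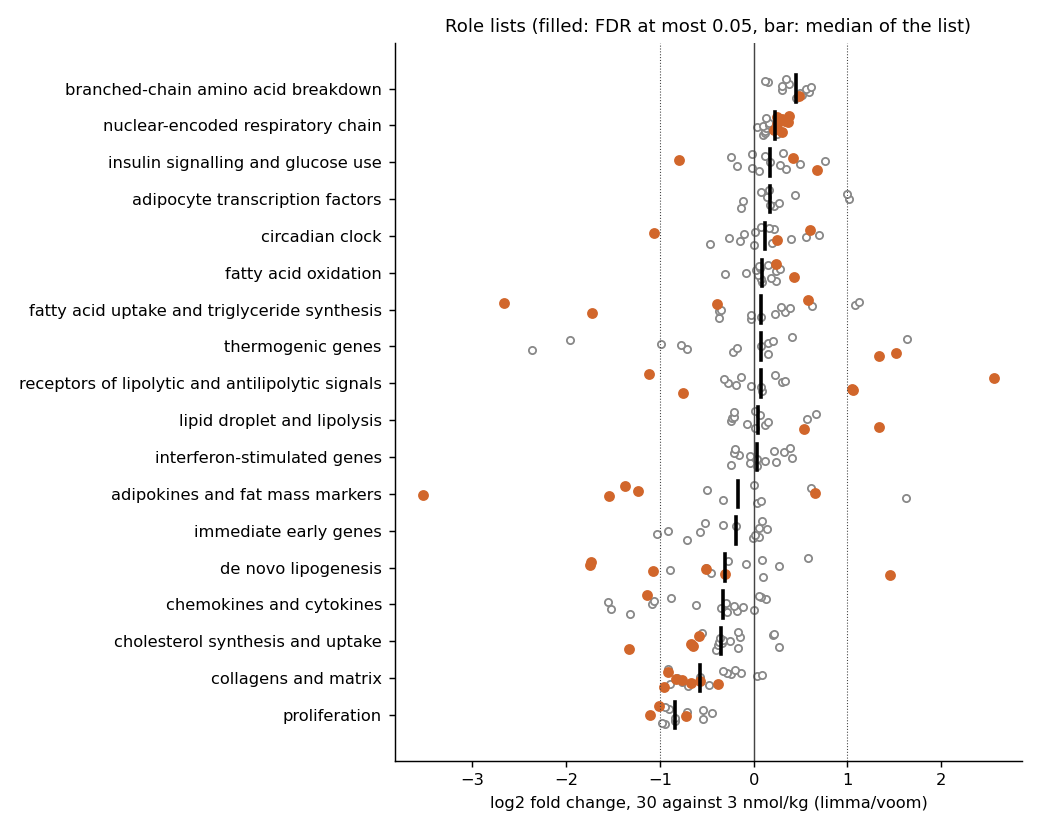
Log2 fold change at 30 against 3 nmol/kg (horizontal axis) of each tested member of the gene lists (rows), filled where the FDR was at most 0.05, with the list's median as a bar and dotted lines at -1 and 1. The respiratory chain members all lie between 0.04 and 0.37, the proliferation members between -0.45 and -1.1.

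Proliferation genes were lower in 13 of 13, with a median of -0.84, and Mki67 and Ube2c were called. Mki67, a marker of dividing cells, was at 7.16, 10.7 and 13.1 TPM against 3.23, 4.62 and 6.58 TPM, with no overlap as TPM and some as scaled counts (-1.1, SE 0.3, FDR 0.0144). Its call was lost without library 11, 25 or 30, on log2(TPM + 1) (-0.96) and with the macrophage covariate (-0.72). Ube2c, of the exit from mitosis, was at 10.6 to 18.2 against 4.43 to 13.2 TPM (-1.01, SE 0.28, FDR 0.017), a call lost in 16 of the other fits, and Mcm5, of DNA replication, fell by 0.72 on the log2 scale (FDR 0.0467). With the macrophage marker level as a covariate, the median was -0.42 and 4 fell. Without libraries 9 and 29 all 13 fell and the median was -1.17, and without libraries 7, 10 and 27 it was -0.91 and 0 passed.

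Markers of other cells were in part lower and in part higher. The 15 macrophage markers summed to 6796, 9743 and 10746 TPM (lowest, median and highest) at 3 nmol/kg and to 6132, 6743 and 11647 TPM at 30 nmol/kg, with 0 passing by limma, edgeR or DESeq2, 4 at an unadjusted p under 0.05 and a median of -0.20. Genes of lipid-associated macrophages, which gather around dying adipocytes, were lower in 12 of 12, with a median of -0.37, 0 passing by limma and edgeR, 1 by DESeq2 and 1 at an unadjusted p under 0.05. Against vehicle the median of these genes was 0.54 at 3 and 0.19 at 30 nmol/kg. Their sum had a median of 9482 TPM with vehicle, 14901.5 at 3 and 10246.5 at 30 nmol/kg. With the macrophage level as a covariate 7 of the 12 were lower at 30 than at 3 nmol/kg. Of the 12, 11 fell with sample quality weights, 3 without libraries 9 and 29 and 0 without libraries 7, 10 and 27. Lyve1 and Cd163, of resident macrophages, were at 1.3 (FDR 0.057) and 1.03 (FDR 0.082). Neutrophil and mast cell markers had a median of -1.19, and Kit, the growth receptor of mast cells, fell by 0.91 on the log2 scale (FDR 0.039). Of these 11 tested markers, 6 were called lower without libraries 9 and 29 and 7 with sample quality weights. Without libraries 7, 10 and 27, 0 were. All 7 genes of MHC class II were lower, with H2-DMb1 passing (-0.77, FDR 0.026). The 16 lymphocyte markers had a median of -0.06, and those of mesothelium, the covering of the fat pad, were higher in 10 of 10 with a median of 0.56. In both lists 0 passed by any of the 3 tools or at an unadjusted p under 0.05. Endothelial markers were higher in 10 of 10, with Emcn passing (0.41, FDR 0.048), and their sum was at 557 to 838 TPM against 480 to 920 TPM, library 29 being the lowest. The part of these cells in the other results was not tested.

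Of 18 chemokines and cytokines, 14 were lower, with a median of -0.32, and Tnf was called. With the macrophage marker level as a covariate 9 of 18 were lower, with a median of -0.01 and 0 called, and without libraries 9 and 29 all 18 were lower and 4 were called. Tnf, made largely by macrophages, was at 1.76, 4.32 and 5.38 TPM against 1.13, 1.47 and 2.71 TPM (-1.13, SE 0.38, FDR 0.0468), a call that was lost in 9 of the 12 fits that left out 1 library. Ccl2 was at 55.7 ± 24.7 against 21.5 ± 7.78 TPM (-1.32, FDR 0.088), and Ccl6, the most abundant, was at 948 to 1301 against 917 to 1697 TPM (0, FDR 0.995). Interferon-stimulated genes had a median of 0.03, with 0 of 14 passing by any of the 3 tools and 1 at an unadjusted p under 0.05. Immediate early genes, which respond within minutes to stimuli and to handling of tissue, had a median of -0.19, with 0 of 13 passing by limma and edgeR, 1 by DESeq2 and 3 at an unadjusted p under 0.05. Among them was Atf3 at 109 to 283 against 91.4 to 229 TPM (-0.72, FDR 0.125).

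Within the circadian clock, Nr1d1 fell and Per1 and Cry1 rose. Nr1d1, which represses Arntl, was at 15.2, 19.4 and 24.3 TPM against 6.19, 9.15 and 16.4 TPM (-1.07, SE 0.25, FDR 0.00629). The groups overlapped through library 28, and Thra overlaps Nr1d1 on the other strand. The call of Nr1d1 was lost on log2(TPM + 1) (-0.995), with the liver covariate (-0.98) and without library 8 (-0.98) or 26 (-0.92). It was also lost without libraries 9 and 29 and without libraries 7, 10 and 27. Per1, a clock repressor that glucocorticoids also induce, was at 28.5, 43.7 and 66.4 against 55.8, 73.9 and 77.5 TPM (0.6, SE 0.17, FDR 0.0173). Cry1, another repressor, was at 15.8 to 19.2 against 18.4 to 22.9 TPM (0.25, FDR 0.0484). The other 13 of the 16 clock genes did not pass, and Tef, Dbp and Arntl differed by 0.07, -0.26 and 0.01. The study's methods give an early and a late blood sampling after the last dose, and the labels do not give the hour at which each fat pad was taken.

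Fkbp5, Zbtb16, Fam107a and Cebpd were named after their values were seen, with no list or test behind the choice. Fkbp5, a chaperone that restrains the glucocorticoid receptor, was at 28.5, 39.4 and 195 TPM against 110, 194 and 209 TPM (1.64, SE 0.44, FDR 0.0151). At 3 nmol/kg libraries 9 and 12 were at 195 and 120 TPM and the other 4 at 28.5 to 41.7 TPM. Zbtb16, a transcription factor, was at 14.2, 21.2 and 82.8 against 39.8, 91.7 and 115 TPM (1.55, SE 0.44, FDR 0.0205). Fam107a was at 1.46, 3.01 and 18.8 against 8.89, 18.5 and 21.6 TPM (1.89, SE 0.49, FDR 0.0124). Cebpd, an early factor of adipocyte differentiation, was at 12, 20.6 and 40.8 against 32.7, 60.7 and 65.2 TPM (1.29, SE 0.29, FDR 0.00452). In these 4 genes library 9 was the highest of the 3 nmol/kg group.

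Other called genes chosen in that way were abundant or have a known metabolic role. Fam13a, a gene tied to fat distribution, was at 13.4, 27.9 and 73.5 TPM against 49.4, 135 and 189 TPM (2.11, SE 0.54, FDR 0.0115), and Vegfa, the angiogenic factor, at 102, 126 and 266 against 145, 343 and 417 TPM (1.12, SE 0.36, FDR 0.0379). Mycl, of the Myc family, was at 2.5, 5.03 and 17.6 against 9.34, 25.2 and 35.1 TPM (1.97, SE 0.55, FDR 0.0182). Pdk2, a kinase that restrains pyruvate oxidation, was at 51.2, 56.1 and 110 against 94.7, 160 and 180 TPM (1.12, SE 0.28, FDR 0.01), and Agt, angiotensinogen, at 25.4, 37.2 and 97.3 against 64, 129 and 137 TPM (1.37, SE 0.42, FDR 0.0287). Library 9 was the highest of its group in all 5. The call of Vegfa was lost in 9 and that of Agt in 7 of the 12 fits without 1 library, and with the macrophage covariate they were at 0.69 and 0.93. Without libraries 7, 10 and 27 these 5 and the 4 genes of the paragraph above were at 1.03 to 1.97 and were not called.

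Peg10, an imprinted gene derived from a retrotransposon, was at 3.17, 7.17 and 13.8 TPM against 0.68, 1.98 and 2.62 TPM (-1.93, SE 0.44, FDR 0.00511). Hp, haptoglobin, was at 1459, 2210 and 3377 against 813, 1071 and 1196 TPM (-1.11, SE 0.27, FDR 0.00772). Gys2, the glycogen synthase known from liver, Tfr2, of iron sensing, and Igfals, a carrier of IGF-I, went from 8.77 ± 2.7 to 3.63 ± 0.59, from 9.22 ± 2.67 to 2.51 ± 1.71 and from 21.9 ± 5.51 to 6.47 ± 3.11 TPM. These 3 genes, Hp and Agt are also expressed in liver. With the liver transcript level as a covariate they were still called, at -1.25 for Gys2, -1.49 for Tfr2, -1.65 for Igfals, -1.13 for Hp and 1.62 for Agt. Without libraries 7, 10 and 27 the calls of Gys2 (-1.35), Tfr2 (-2.12), Hp (-1.17) and Peg10 (-1.68) were lost and that of Igfals was kept, and Hp was also not called without library 9 (-0.96).

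The liver transcripts themselves were lower in 19 of 20, with a median of -1.81, and 0 passed by any of the 3 tools or at an unadjusted p under 0.05. Alb was at 40.6, 143 and 1140 TPM at 3 nmol/kg and at 12.1, 59.4 and 548 TPM at 30 nmol/kg (-1.93, SE 1.2, FDR 0.281), against 1233 ± 1292 TPM with vehicle. With the liver transcript level as a covariate 223 genes were called higher and 221 lower, of which 141 and 164 were also called without it. Red blood cell transcripts had a median of -0.08, with 0 of 7 passing by any of the 3 tools or at an unadjusted p under 0.05.

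The other doses place the ends of the comparison. At 3 nmol/kg against vehicle 0 genes were called (0.0% of 18536) by limma/voom, with 1656 at an unadjusted p under 0.05 and 1 at an FDR of at most 0.05, while edgeR called 0 and DESeq2 91. The 3 nmol/kg libraries enter that comparison too, so its values are not independent of those above. Mest was at 311 ± 147 TPM with vehicle and 173 ± 48.8 at 3 nmol/kg, and Oxtr at 40.1 ± 8 and 18.2 ± 6.42 TPM (FDR 0.776 and 0.331). By list medians against vehicle, the 3 nmol/kg group did not always lie between vehicle and 30 nmol/kg. At 3 and 30 nmol/kg these were 0.28 and -0.32 for the matrix genes and 0.48 and -0.48 for neutrophil and mast cell markers. They were -0.14 and 0.27 for branched-chain amino acid breakdown. De novo lipogenesis was at -0.22 and -0.48, and cholesterol synthesis at -0.10 and -0.38. Against vehicle, 30 nmol/kg gave 422 genes called higher and 754 lower.

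The step from 10 to 20 nmol/kg uses none of the 12 libraries. There 0 genes were called (0.0%) by limma/voom, with 2388 at an unadjusted p under 0.05 and 0 at an FDR of at most 0.05, while edgeR called 0 and DESeq2 2. Of the 158 genes called higher at 30 against 3 nmol/kg, 144 were higher at 20 than at 10 nmol/kg, with a median difference of 0.6, and 40 of them had an unadjusted p under 0.05. Of the 197 called lower, 156 were lower at 20 than at 10 nmol/kg, with a median of -0.36, and 37 had an unadjusted p under 0.05. Over all genes tested 47.5% were higher at 20 than at 10 nmol/kg and the median was -0.01. In that step the adipocyte markers had a median of 0.4 and the macrophage markers of -0.38. The adipocyte sum had a median of 15176.5 TPM at 10 and 23038 TPM at 20 nmol/kg, and the macrophage sum of 11763 and 8909 TPM. The part of these cells in the step was not tested. Asns went from 30 ± 8.87 TPM at 10 to 49.2 ± 16.5 at 20 nmol/kg (0.63, FDR 0.384) and Scd2 from 34.4 ± 10.9 to 24 ± 7.54 TPM (-0.58, FDR 0.384). The means at 10 nmol/kg lay between those at 3 and 30 nmol/kg for 178 of the 197 lower genes and for 69 of the 158 higher ones, and the means at 20 nmol/kg for 182 and 145. The genes were picked for a gap between 3 and 30 nmol/kg, into which means of other groups readily fall. The same count over all genes tested was not made, so these counts are a description. Cidea was at 4.3 ± 2.32 TPM at 10 and 6.54 ± 2.24 at 20 nmol/kg, and the highest of the 6 values at 3 nmol/kg was 6.52 TPM.

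**Figure D5:**
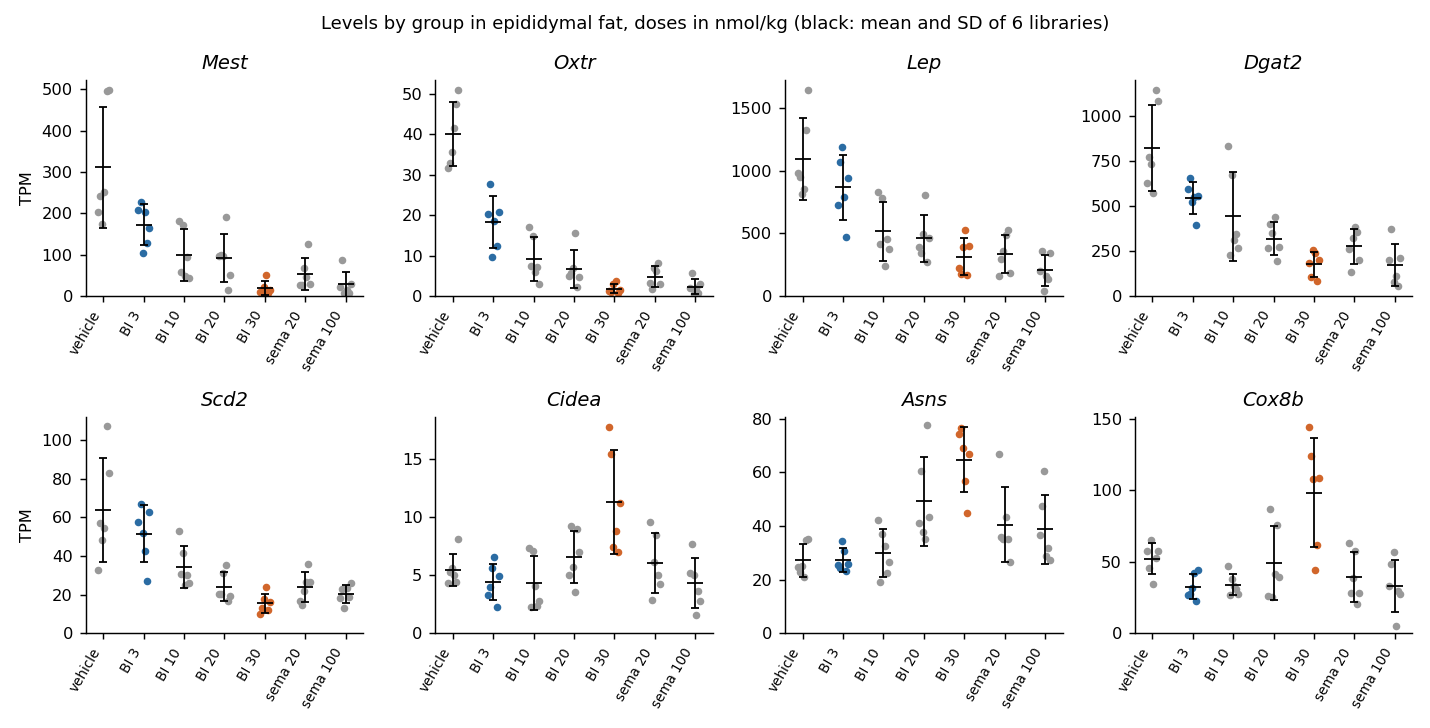
TPM (vertical axes, linear from 0) of 8 genes in the 7 eWAT groups (horizontal axis: vehicle, BI 456906 and semaglutide with doses in nmol/kg), with each library as a point and the mean and SD of 6 in black. Mest, Oxtr, Lep, Dgat2 and Scd2 are lowest or near lowest at 30 nmol/kg of BI 456906, while Cidea, at 11.3 ± 4.45 TPM there, is at 6.04 ± 2.56 and 4.32 ± 2.15 TPM with semaglutide.

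With semaglutide at 20 and 100 nmol/kg, Mest was at 53.4 ± 39.5 and 27.8 ± 30.5 TPM, Oxtr at 4.82 ± 2.57 and 2.31 ± 1.93 TPM and Lep at 336 ± 152 and 205 ± 124 TPM. At 30 nmol/kg of BI 456906 the means of these genes were 18.6 ± 16.7, 1.82 ± 1.19 and 314 ± 146 TPM, so Lep had its lowest mean with semaglutide at 100 nmol/kg. Cox8b was at 39.4 ± 17.3 and 33.4 ± 18.1 TPM with semaglutide against 98.3 ± 37.9 TPM, and Asns at 40.5 ± 14 and 38.7 ± 12.9 against 64.7 ± 11.9 TPM. No semaglutide group had the dose of 30 nmol/kg, and no test was made between the compounds.

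Liver from the same 2 groups showed which differences depended on the tissue. In a fit of all 84 libraries, 998 of 19229 genes (5.19%) were called in liver at 30 against 3 nmol/kg, 406 higher and 592 lower, and the difference between the tissues was called for 929 (4.83%). That difference was called for 55 of the 158 genes higher in eWAT and for 58 of the 195 lower ones that were tested in both tissues. Counting only genes above the floor of 3 reads in some liver library, these were 51 of 134 and 36 of 127. Of the genes called higher in eWAT 5 were called higher and 6 lower in liver, and of those called lower 11 were called lower and 3 higher. The genes were picked for a change in eWAT, which is 1 side of the difference, so these shares are a description.

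Cidea had the largest tissue difference among the rises named above, 6.58 (FDR 6.75e-06), as it went from 15.2 ± 18.1 to 0.76 ± 1.16 TPM in liver. Acacb rose in eWAT and was at -0.38 in liver (difference 1.85, FDR 0.00154), and Dgat2, abundant in both tissues, was at 440 ± 37.3 and 390 ± 60.7 TPM in liver (difference -1.42, FDR 0.00378). Fam13a and Pdk2 had differences of 2.95 (FDR 0.00023) and 1.65 (FDR 3.31e-05). Asns rose in both tissues, with 2.41 (FDR 0.00339) in liver on 0.683 ± 0.58 and 3.19 ± 1.92 TPM, and so did Per1 (0.93), Cry1 (0.51) and Fkbp5 (1.71), the E-boxes of Per1 and Cry1 being those printed above. Elovl6 and Hmgcs1 fell in both, at -1.74 and -0.65 in liver, and their tissue differences of 0.69 and 0.01 had FDRs of 0.215 and 0.992.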

How the data were processed

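The authors aligned reads and counted them per gene, and per the labels' processing notes used STAR 2.5.2b, RSEM 1.3.0, featureCounts 1.5.1, FastQC 0.11.5 and the builds mm10 and GRCm38. The deposited counts are a scaled signal, read counts divided by 1 factor per library, and 100% of nonzero values were whole multiples of that step (tolerance 0.01). TPM was used as deposited by the authors. The study's methods give directional poly(A) libraries read from both ends, the labels another kit and single reads, so use of strand is unsure.

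From these, limma 3.58.1 (voom; with edgeR 4.0.16 in R 4.3.3) fitted the 42 eWAT libraries in 7 groups on the values as deposited, with TMM, a pseudocount of 0.5, filterByExpr and Benjamini-Hochberg FDR. The study's methods name limma/voom and the same thresholds, and edgeR's quasi-likelihood test and DESeq2 1.42.0 on recovered reads were alternatives. Tissues were compared by interaction in 1 fit of 84 libraries. On data simulated for this comparison with 18384 genes, 87 of 100 genes changed 4-fold and 36 of 100 changed 2-fold were called, and 0 others. Genes were drawn independently there, with no difference in cell content between libraries, so false calls from such differences could not appear. Among 30 pairs of libraries within groups chi-square per degree of freedom was at least 20.0, so none was a copy. All libraries shared 1 flow cell.

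Symbols were paired with 48434 of 48794 identifiers through GENCODE M21, whose GRCm38 coordinates are given. The genes named are the 10 largest rises and falls among called protein-coding genes with no overlap and at least 1 TPM, 7 fixed genes, and up to 4 called or the 2 most abundant members of each of 18 lists. Other list members and 15 further genes were named after their values were seen, as was the macrophage covariate. The members and lists were chosen with earlier results of these data known. Some genes that these rules name are not reported here.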

Additional observations from a re-analysis of the deposited data

Results flagged for a closer look

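Within groups of 6, a library was noted when its distance from the next, divided by the group's range, exceeded Dixon's critical value at the 95% level, which chance alone gives in about 1 group in 20. No explanation of these values was tested.

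Library 9 was the highest at 3 nmol/kg for Usp2 (7.32 TPM, others 2.95 to 4.26), Adipoq (2724 TPM, others 1408 to 1766), Cidec (4610 TPM), Bcat2 (147 TPM), Ivd (183.9 TPM), Fam13a (73.49 TPM), Vegfa (265.6 TPM), Agt (97.34 TPM) and Pdk2 (109.8 TPM), and for the skeletal muscle sum (495.8 TPM). At 30 nmol/kg library 29 was the highest for Plin2 (2811 TPM), Ccl6 (1697 TPM) and Ccl9 (865.9 TPM) and for the sums of macrophage (11650 TPM), lipid-associated macrophage (21810 TPM) and neutrophil and mast cell markers (1094 TPM), and the lowest for Acadm (189.9 TPM) and for endothelial markers (479.8 TPM). Library 28 was the highest at that dose for Ncan (0.27 TPM), Mest (51.19 TPM), Sparc (1873 TPM), Nr1d1 (16.44 TPM) and the epididymis markers (6.73 TPM), and the lowest for Tcf23 (2.03 TPM). Library 27 was the highest there for Alb (548.1 TPM) and the liver transcripts (1779 TPM), and library 10 at 3 nmol/kg for Bex1 (0.75 TPM).

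The log2 difference between eWAT and liver in the 30 against 3 nmol/kg contrast was called by the interaction test (limma/voom) for 19 of the named genes above the floor in liver. Higher in eWAT relative to liver were Cidea (6.58), Fam13a (2.95), Mycl (2.63), Fam180a (2.04), Tcf23 (1.91), Acacb (1.85), Pdk2 (1.65), Cebpd (1.18), Vegfa (1.15), Pmvk (1.08) and Usp2 (1.04). Lower in eWAT relative to liver were Peg10 (-2.96), Tfr2 (-2.17), Igfals (-1.81), Dgat2 (-1.42), Hp (-1.41), Gys2 (-1.25), Nr1d1 (-1.21) and Scd2 (-1.13). Tcf23 was at 0.0433 ± 0.0207 TPM and Peg10 at 0.527 ± 0.204 TPM in liver at 30 nmol/kg.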

How the results depend on the processing

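The main counts were 158 genes called higher and 197 lower. They became 98 and 117 with at least 10 deposited counts in every library, 51 and 47 on log2(TPM + 1), 95 and 140 on log2(TPM + 0.1), 501 and 690 with sample quality weights, and 1044 and 1098 with no minimum fold change. Leaving out each library in turn gave 88 to 307 higher and 114 to 264 lower, the most without library 29 (307 and 233) or library 9 (278 and 264), and the fewest without library 8 (88 and 119) or 26 (93 and 114). Counts also fell by over 1.5 times without library 7 (90 and 117), library 11 (95 higher), library 25 (130 lower) or library 30 (126 lower). Chosen after seeing the data, leaving out libraries 9 and 29 gave 396 and 400, leaving out libraries 7, 10 and 27 gave 19 and 63, and the macrophage level as a covariate gave 82 and 264. The other scalings, filters and tools were within 1.5 times of the main counts. All 355 called genes that could be tested kept their direction in each fit, except 3 on log2(TPM + 1) and 3 on log2(TPM + 0.1). The cause of these moves was not tested, beyond the fewer genes or libraries in some fits.

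For 3 nmol/kg against vehicle the count of 0 became 5 without a filter, 91 with DESeq2 and 33 with quality weights, and for 20 against 10 nmol/kg it became 2 with DESeq2 and 178 with quality weights. The tissue difference was called for 475 genes with at least 10 counts and for 421 on log2(TPM + 1), against 929.

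Among the genes named in the text, those that reversed were not called. Gcgr (-0.03) was at 0.0105 with library size alone, 0.0053 with edgeR, 0.0228 with DESeq2, 0.1328 with quality weights, 0.4356 with the liver covariate, 0.2247 without libraries 9 and 29, 0.0171 without libraries 7, 10 and 27, and -0.1577 to 0.1999 over the 12 fits without 1 library, above 0 in 5. Ccl6 (0.00) was at -0.1307 with quality weights, -0.1215 with the liver covariate, -0.1657 and -0.0721 without those libraries, and -0.1264 to 0.0891 over the fits without 1 library, below 0 in 4. With quality weights Bst2 was at -0.0187, and with the liver covariate Bst2 was at -0.0127 and Alb at 0.0018. Without libraries 9 and 29 Gipr was at 0.0058, Dusp1 at -0.0268 (-0.0276 to 0.1409 over the fits without 1 library, below 0 without library 29) and Bst2 at -0.0368. Without libraries 7, 10 and 27 Adipoq was at -0.0714 and Cidec at -0.0292. With the macrophage covariate Adipoq was at -0.3653, Cidec at -0.1857, Plin2 at 0.0328, Akt2 at -0.0857, Acadm at -0.1227 and Ccl9 at 0.1469.

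No paired analysis was possible because the labels give no mouse numbers. The fit of all 84 libraries treated eWAT and liver libraries as independent, and the labels do not say whether the same mice gave both. Depth limited genes with few reads, such as Pvalb at 30 nmol/kg, Glp1r and Ucp1.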
